A study of Mus musculus with 7 samples.

Results

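Cytoplasmic ribosomal protein genes were followed through a light-induction time course in mouse embryonic stem cells. Members were the genes with a symbol of Rpl or Rps and a digit, together with Rplp0, Rplp1, Rplp2 and Rpsa; S6 kinases, mitochondrial ribosomal proteins and pseudogenes were left out. This gave 89 of the 20294 genes in the table: 46 core proteins of the large subunit, 31 of the small subunit, 11 paralogs or retrocopies, and Rps19bp1, a binding partner of Rps19 that is not a ribosomal protein and entered by its letters. The cells were E14, an established mouse stem cell line, in 2i medium, and every library came from cells with the Brn2-RFP GAVPO induction cassette, in which a light-switched factor controls Brn2 (Pou3f2). The labels give illumination by LED at 300 µW on Ibidi plates and times of 0, 2, 4, 6, 14, 24 and 48 h. Each time point is 1 library, 7 in all, and a p-value below rests on the scatter of 7 unreplicated libraries around a line. The labels do not say whether the libraries came from separate cultures, whether the line is 1 clone, or what the library at 0 h received beyond the shared protocol.

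A ribosome joins a small subunit, which reads the messenger RNA, to a large subunit, which forms the peptide bonds. Each core protein is present in about equal number per ribosome, and cells balance the proteins partly through translation: most mammalian ribosomal protein mRNAs begin with a C and an unbroken run of pyrimidines, the terminal oligopyrimidine (TOP) tract, through which growth signalling by mTOR controls their translation. Embryonic stem cells divide fast and make many ribosomes. The genes are also copied throughout the genome as processed pseudogenes, of which RefSeq lists 309 for this family, so short reads of one gene can match several places.

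The tract could be read from RefSeq's annotated starts (build GRCm38.p6) in part of the family. A start region was found for 57 of the 77 core genes. A C followed by further pyrimidines, with a run of at least 5 from the annotated first base, stood at a listed start of 13 of these 57 (22.8%), and of 813 of 27025 genes overall (3.01%). The windows below run from 10 bases before the start to its first 20 bases, and capitals mark the run; they are shown because the tract is the element through which translation of these mRNAs is known to be controlled.

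Rps6 (chr4:86857348-86857377, minus strand): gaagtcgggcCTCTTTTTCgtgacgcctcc
Rpl35 (chr2:39005112-39005141, minus strand): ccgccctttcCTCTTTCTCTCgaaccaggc
Rpl15 (chr14:18270967-18270996, minus strand): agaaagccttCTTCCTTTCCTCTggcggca
Rps10 (chr17:27635225-27635254, minus strand): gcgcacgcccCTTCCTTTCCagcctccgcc
Rpl38 (chr11:114668570-114668599, plus strand): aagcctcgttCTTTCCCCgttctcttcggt
Rplp2 (chr7:141447641-141447670, plus strand): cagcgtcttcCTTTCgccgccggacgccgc
Rpl22l1 (chr3:28805498-28805527, plus strand): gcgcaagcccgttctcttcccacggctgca

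In Rpl22l1, a paralog of Rpl22, the annotated first base is a g and no run was marked. An annotated start can lie a few bases from the true one, so a window without a marked run says nothing about how that mRNA begins. The letters CCGGAAG, the core of ETS-family sites, occurred on either strand of the 300-base start region in 24 of the 57 core genes (42.1%) and in 9.93% of all genes. The letters TATAA were found in 28.1% of the core genes and 28.0% of all genes. These matches describe letters and no binding was measured.

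The deposited values behave as reads per kilobase of a gene's whole genomic span, introns included, scaled to the library. Reads recovered on that basis gave between 7.02 M and 16.1 M per library, and each core gene had at least 877 reads in every library, so counting error was small beside the differences between libraries. Of the 100 genes with the highest mean value, 58 were core ribosomal protein genes. All 8 embryonic stem cell markers were detected in every library, with a summed value of 1532, 1741, 1542, 1365, 1280, 1008 and 1020 in order of time; 3 of the 8 had a positive fitted change, the median was -0.42 and 0 passed the trend test. Dppa5a, the most abundant of them, went from 1076 at 0 h to 491 at 48 h, while Pou5f1 went from 154 to 235. Markers of other cells stayed low over the time course, the summed value of 6 fibroblast or feeder markers between 0.417 and 3.27 and that of 6 primitive endoderm markers between 0.383 and 4.77, both highest at 48 h, with Lum and Col3a1 at 0 in 6 and 5 of the 7 libraries. At 48 h Foxa2 alone made up 4.62 of the endoderm sum, and Col1a2 and Thy1 made up 2.16 and 1.05 of the fibroblast sum. Gata4, Sox17, Dab2 and Pdgfra were lower at 48 h than at 0 h, and Gata6 was higher. The sum of 6 neuronal markers was 7.05 at 0 h and 14.3 to 17.9 from 2 to 24 h, and at 48 h Tubb3 alone was at 44.6. Elavl3 went from 0.151 at 0 h to 1.44 at 48 h, and Dcx, Map2 and Snap25 were also highest at 48 h, at 0.107, 0.116 and 0.066. Stmn2 was instead highest at 4 h (4.38), with 1.48 at 0 h and 3.68 at 48 h. The part of either marker list in the results below was not tested. Pou3f2, the gene under light control, was itself uneven, with values of 77.0, 36.9, 47.3, 96.2, 119, 41.3 and 7.19 in order of time.

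Core ribosomal protein mRNAs took up 9.44% of recovered reads at 0 h, the lowest share of any library. In the 6 later libraries the share was 11.6%, 12.7%, 12.6%, 10.8%, 11.4% and 11.5% in order of time. The early libraries after light thus held the highest shares, and all 6 lit libraries lay above 0 h. The 95% Wilson interval ran from 9.43% to 9.46% at 0 h and from 12.6% to 12.7% at 4 h; it covers counting error only, since reads without molecular identifiers are not independent molecules and no library was repeated. In bulk RNA, fewer cells of a type and less RNA per cell cannot be told apart. The large subunit genes went from 5.08% at 0 h to 6.77% at 6 h and 6.52% at 48 h. Small subunit genes went from 4.36% at 0 h to a high of 6.08% at 4 h, and stood at 4.96% at 14 h.

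**Figure D1:**
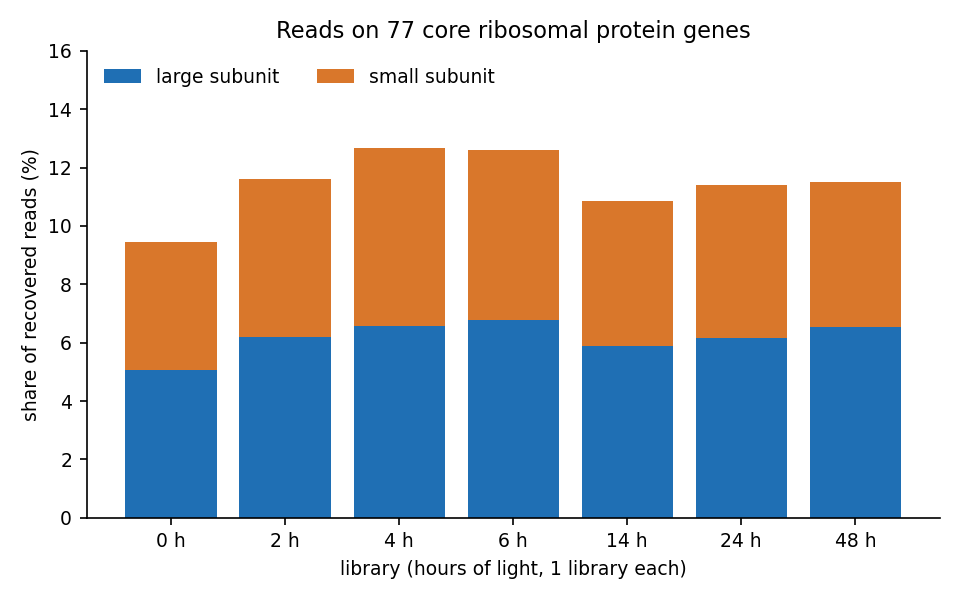
Share of recovered reads (percent, axis from 0) on 77 core ribosomal protein genes in each of the 7 single libraries, stacked by subunit (46 large, 31 small); there is no error bar because no library was repeated. The 0 h bar is the lowest at 9.44% and the 4 h bar the highest at 12.7%.

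The ratio of each later library to 0 h is given as log2 of the value plus 1, and all 6 ratios share the single 0 h library. The median over the 77 core genes was, in order of time, 0.35, 0.46, 0.43, 0.16, 0.27 and 0.16, which is 1.38-fold at 4 h and 1.12-fold at 48 h. Over all genes that reached a value of 10 in 1 of the compared libraries the medians were 0.15, 0.09, 0.21, 0.15, 0.18 and 0.28. Core genes therefore lay above the table's median at 2, 4, 6 and 24 h, close to it at 14 h and below it at 48 h. This order turned at 6 h with quantile normalization (0.02 against 0.04 in all genes), and at 6 and 24 h with the length trend described below removed (-0.01 against 0.04, and -0.03 against 0.05); with GC and length trends both removed it turned at 24 h. At 4 h, 76 of the 77 core genes were higher than at 0 h, as were 43.5% of the 6411 genes tested for a trend; the exception was Rpl3, a protein of the peptidyl transferase region, at 449 and 349. At 48 h the number higher than at 0 h was 51 of 77, beside 50.3% of tested genes. Among all genes that reached a value of 10, 58.8% were higher than at 0 h at 4 h, and 64.4% at 48 h.

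The ratios were also taken for each subunit. Large subunit medians were 0.36, 0.44, 0.43, 0.16, 0.27 and 0.18 at 2, 4, 6, 14, 24 and 48 h. Small subunit medians were 0.35, 0.50, 0.43, 0.15, 0.29 and 0.08. The difference between the subunits was not tested. Single genes ran at 4 h from -0.37 (Rpl3) to 0.98 (Rps15a) and at 48 h from -1.03 (Rpl5) to 1.42 (Rplp1).

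**Figure D2:**
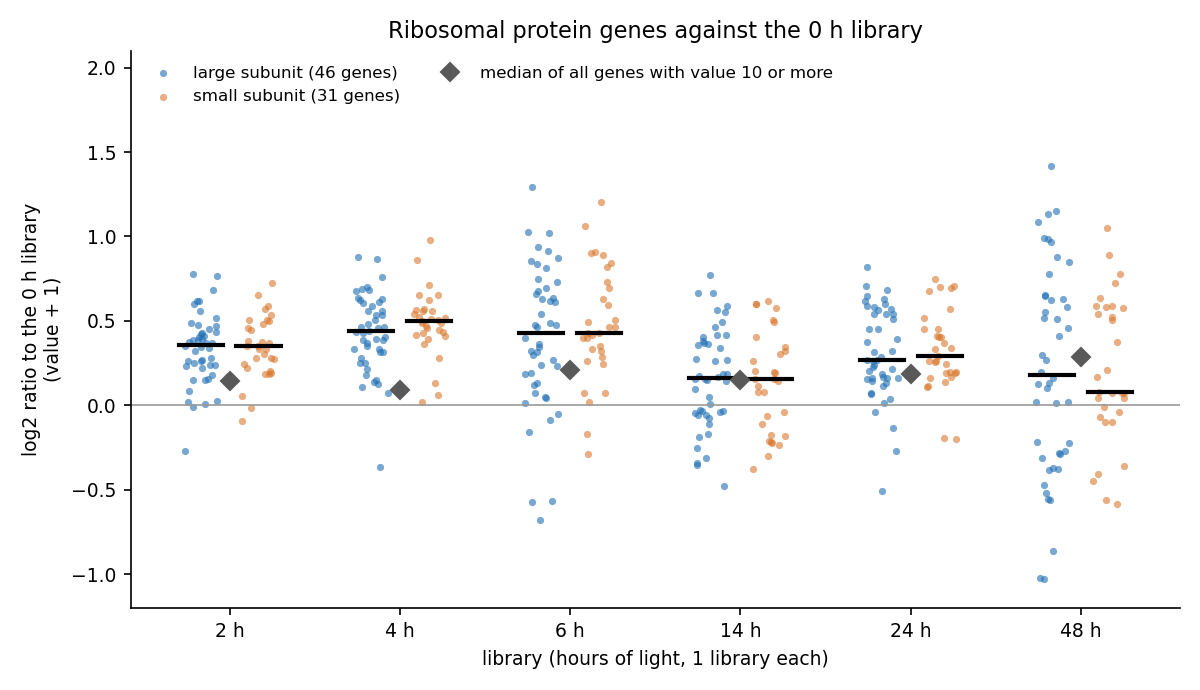
Log2 ratio (value plus 1) of each later library to the 0 h library for 46 large and 31 small subunit genes; each point is 1 gene, black bars are subunit medians and grey diamonds the median of all genes that reached a value of 10. Points are tight and mostly above 0 at 4 h (medians 0.44 and 0.50) and spread widely at 48 h (-1.03 to 1.42).

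Within single genes the most frequent low was at 0 h and the most frequent highs at 4 and 6 h. The 0 h library was the lowest of the 7 for 43 of the 77 core genes, 26 of 46 large and 17 of 31 small, against 17.5% of tested genes. The 48 h library was the lowest for 20 (26.5% of tested genes) and the 14 h library for 12 (10.6%). The highest library was 4 h for 30 core genes (7.13% of tested genes), 6 h for 22 (14.8%) and 48 h for 15 (24.6%), and was 0 h for 0 of the 77. On these library-scaled values the ratio of the highest to the lowest library had a median of 1.71 and ran from 1.20 to 2.70. It was under 2 for 62 of 77 core genes, compared with 51.7% of tested genes, which include genes of much lower value. The median size of the fitted change was 0.363 in core and 0.359 in tested genes. Scatter around the fitted line (residual SD) had medians of 0.245 and 0.231.

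Transcript length moved with the same libraries in part, most clearly at 0 and 6 h. Core ribosomal protein transcripts are short, with a median of 681 bases against 2486 for other tested genes. Deviations from gene means were taken on the log2 scale. Among other genes, the shortest decile (804 bases or less) had medians of -0.32, -0.06, -0.01, 0.15, -0.07, 0.17 and 0.16 in order of time. The core genes had medians of -0.29, 0.05, 0.16, 0.17, -0.12, 0.04 and -0.04. With this length trend removed from every library, the core median ratio was 0.17 at 4 h and -0.23 at 48 h, and 0 h was the lowest library for 15 of 77 core genes.

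No member passed the trend test. With limma, fitted across all 6411 genes with a mean value of at least 1 and adjusted by Benjamini-Hochberg, 19 genes rose (0.296% of those tested) and 4 fell (0.0624%) at an adjusted p under 0.05, and 0 of the 88 members tested were among either; Rpl3l, at a mean of 0.132, was not tested. The unadjusted p was under 0.05 for 7 of the 88 members and for 21.5% of all tested genes. On recovered reads, limma-voom called 305 genes up (2.26%) and 108 down (0.800%) and again 0 members. The smallest adjusted p of any member was 0.085, for Rps23rg1, and 0.052 on recovered reads.

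The median fitted log2 change from 0 to 48 h was 0.06 for the large and 0.05 for the small subunit, beside 0.01 for all tested genes. A positive change was fitted for 26 of 46 large and 17 of 31 small subunit genes, and for 50.5% of all tested genes. Single genes ranged from -0.83 to 1.07 in the large and from -0.49 to 0.77 in the small subunit, while the median standard error of a change was 0.30. The medians of both subunits were negative without the 0 h library (-0.21 and -0.27) and 0.26 and 0.23 without the 48 h library. Both were also negative with quantile normalization and with GC, length or both trends removed.

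**Figure D3:**
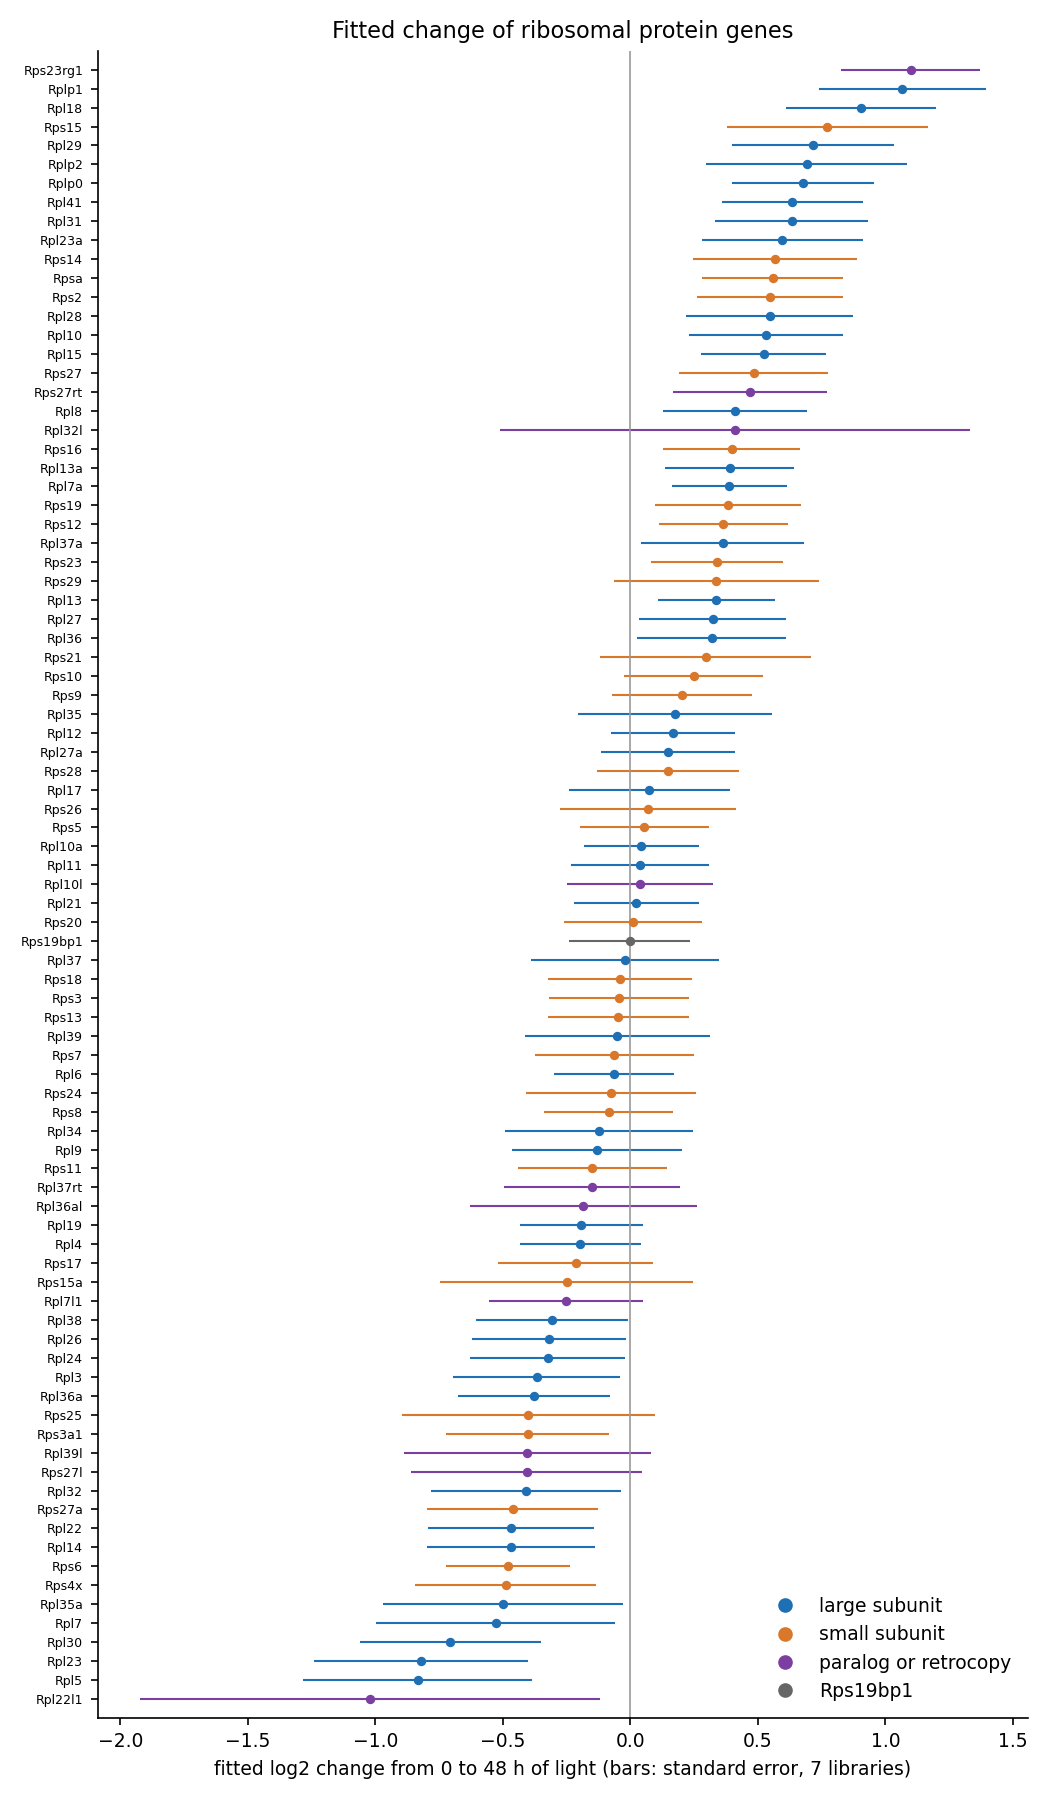
Fitted log2 change from 0 to 48 h of light for 87 of the 88 tested members, ordered by size; points are the limma estimate over 7 libraries, bars its standard error, and colours the subunit or copy. Estimates run from -1.02 for Rpl22l1 to 1.10 for Rps23rg1 without a gap, and no member passed the test.

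The acidic stalk of the large subunit, which recruits the elongation factors, held the core genes with some of the most positive changes. Rplp1 stood at 1235, 1652, 1637, 2512, 1955, 1759 and 3296 in order of time. It was highest at 48 h and lowest at 0 h, and its fitted log2 change was 1.07 ± 0.33 (SE; adjusted p = 0.127 by limma, and 0.053 to 0.745 over the 20 alternative settings). Rplp2 stood at 104, 159, 169, 257, 147, 153 and 223, highest at 6 h (0.69 ± 0.39, adjusted p = 0.320). Rplp0, the scaffold of the stalk, stood at 745, 976, 928, 1156, 1101, 893 and 1460 (0.68 ± 0.28, adjusted p = 0.203). All 3 stalk genes were lowest at 0 h, and 48 h was the highest library for Rplp1 and Rplp0. With the GC trend described below removed, the changes were 0.55 (Rplp1), 0.30 (Rplp2) and 0.47 (Rplp0).

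Among other large subunit proteins, Rpl18 and Rpl29 also had positive changes of this size. Rpl18 stood at 187, 268, 272, 381, 321, 294 and 412 (0.90 ± 0.29, adjusted p = 0.142); its span overlaps Sphk2. Rpl29 was lowest at 0 h (308) and highest at 48 h (614), with a change of 0.72 (adjusted p = 0.228). In the small subunit Rps15, a protein of the head of the subunit, had the most positive change of the core genes. Its values of 226, 286, 337, 524, 259, 363 and 470 peaked at 6 h (0.77 ± 0.39, adjusted p = 0.275). Rpsa, which also carries the name laminin receptor, went from 439 at 0 h to 752 at 48 h (0.56, adjusted p = 0.266). With the GC trend removed these changes were smaller, at 0.33 (Rpl18), 0.15 (Rpl29), 0.23 (Rps15) and 0.11 (Rpsa).

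Among core genes the most negative changes were those of Rpl5 and Rpl23. Rpl5, which with Rpl11 and a small ribosomal RNA can bind Mdm2, the ubiquitin ligase of p53, stood at 179, 228, 225, 120, 198, 174 and 87.2. It was lowest at 48 h and next lowest at 6 h (-0.83 ± 0.45, adjusted p = 0.297); its span holds 3 small nucleolar RNAs and overlaps Dipk1a. Rpl23 stood at 101, 114, 132, 90.0, 78.6, 114 and 48.9 (-0.82 ± 0.42, adjusted p = 0.275). For Rpl11, the partner of Rpl5, values lay between 254 (0 h) and 351 (2 h), with 273 at 48 h and a fitted change of 0.04 (adjusted p = 0.943).

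Rpl30, Rpl7 and Rpl35a followed among the negative changes. Rpl30 stood at 135, 134, 149, 83.9, 128, 112 and 73.9 in order of time (-0.71, adjusted p = 0.272). Rpl7 was highest at 4 h (629) and lowest at 48 h (266), with a change of -0.53 (adjusted p = 0.517). Rpl35a, one of the genes mutated in Diamond-Blackfan anaemia, lay between 19.2 at 48 h and 50.1 at 4 h (-0.50, adjusted p = 0.543). In the small subunit the lowest were Rps4x, an X-linked core protein that ran from 482 at 48 h to 997 at 4 h (-0.49, adjusted p = 0.427), and Rps6. Rps6, the substrate of S6 kinase downstream of mTOR, stood at 510, 477, 517, 417, 449, 444 and 339 (-0.48 ± 0.24, adjusted p = 0.275). The 48 h value was the lowest of the 7. With the GC trend removed the changes were -0.58 (Rpl30), -0.25 (Rpl7), -0.38 (Rpl35a), -0.40 (Rps4x) and -0.50 (Rps6).

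Other members with known specific roles did not pass the test either. Rps19, the gene most often mutated in Diamond-Blackfan anaemia, lay between 171 at 0 h and 266 at 48 h (0.38, adjusted p = 0.442; -0.26 with the GC trend removed, adjusted p = 0.578). Rpl38, known from the patterning of the mouse axial skeleton, lay between 99.9 at 48 h and 163 at 4 h (-0.31, adjusted p = 0.559; -0.75 with the GC trend removed, adjusted p = 0.265). Rpl10a, part of the mobile stalk that handles the leaving tRNA, lay between 714 and 860 (0.04, adjusted p = 0.924; -0.36 with the GC trend removed, adjusted p = 0.388). The 13 core genes with a marked pyrimidine run did not share 1 direction: 7 had a positive fitted change, beside 43 of all 77. Their changes ran from -0.50 (Rpl35a) to 0.69 (Rplp2). All 13 were higher at 4 h than at 0 h, as were 76 of the 77 core genes.

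Members past a 2-fold difference from 0 h were also counted, beside the share of all genes. At 6 h, 6 of 86 members were at least 2-fold higher (5.85% of 1504 genes), namely Rpl18, Rpl32l, Rplp1, Rplp2, Rps15 and Rps21. In the same library 1 was at least 2-fold lower, Rpl22l1 (1.66% of genes). At 48 h, 5 of 86 members were higher (15.8% of 1623 genes), among them Rpl18, Rplp1, Rplp2 and Rps15, and 3 were lower (7.76%), Rpl22l1, Rpl23 and Rpl5. At 2 h the copy Rpl32l was higher (3.77% of 1432 genes) and Rpl39l lower (1.82%), at 4 h Rpl32l was higher (1.78% of 1402) and 0 members were lower (0.642%), and at 24 h Rpl32l was higher (4.77% of 1466) and 0 were lower (2.39%). At 14 h, 0 members were higher (3.90% of 1514 genes) and Rpl39l was lower (3.17%). With the GC trend removed 0 of 84 members were past the fold at 48 h, where 112 of all 1616 genes were higher and 65 lower. At 6 h 3 of 84 members were then higher, Rpl37a, Rps15a and Rps27rt, and 0 were lower. Of all 1496 genes 23 were higher and 11 lower there. With GC and length trends removed, 2 of 84 members were lower at 48 h, Rpl22l1 and Rpl38, and 0 were higher. Of all 1616 genes 70 were then lower and 112 higher. With quantile normalization 0 of 86 members were higher at 48 h and 5 lower, beside 175 and 190 of all 1623 genes. At 6 h 1 member was then higher and 1 lower, beside 48 and 58 of 1504 genes. With only the length trend removed, 0 of 84 members were higher at 48 h and 5 lower, beside 180 and 162 of 1616 genes. At 6 h 0 members were then higher and 3 lower, beside 31 and 50 of 1496 genes.

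The members' changes followed their GC content. Transcript GC of the 77 core genes ran from 41.3% to 60.8%, with a median of 51.8% against 51.4% in other tested genes. Across the core genes, which share all libraries, Pearson's r of GC with a gene's deviation from its own mean was -0.44, -0.60, -0.65, 0.52, 0.20, -0.54 and 0.66 in order of time. Over 2361 other genes with a mean of at least 5 the values were -0.51, -0.32, -0.51, 0.47, 0.23, -0.39 and 0.64, so the libraries at 6 and 48 h stood together in both sets. These are descriptions across genes, which are not independent replicates.

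The extremes of GC content show both courses. The 15 core genes of lowest GC (41.3% to 48.1%) had median values of 179, 307, 226 and 131 in the libraries of 0, 4, 6 and 48 h, and 4 of them had a positive fitted change. The 15 of highest GC (56.2% to 60.8%) had medians of 375, 447, 599 and 614 at the same times, and 14 had a positive change. Both sets were higher at 4 h than at 0 h in 15 of 15 genes. With the GC trend of other genes removed from each library, the median fitted change of the low set went from -0.40 to -0.15 and that of the high set from 0.55 to -0.13. Rplp1 (57.3% GC) then had a change of 0.55 and Rpl5 (42.8% GC) one of -0.35, with adjusted p = 0.237 and 0.608.

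**Figure D4:**
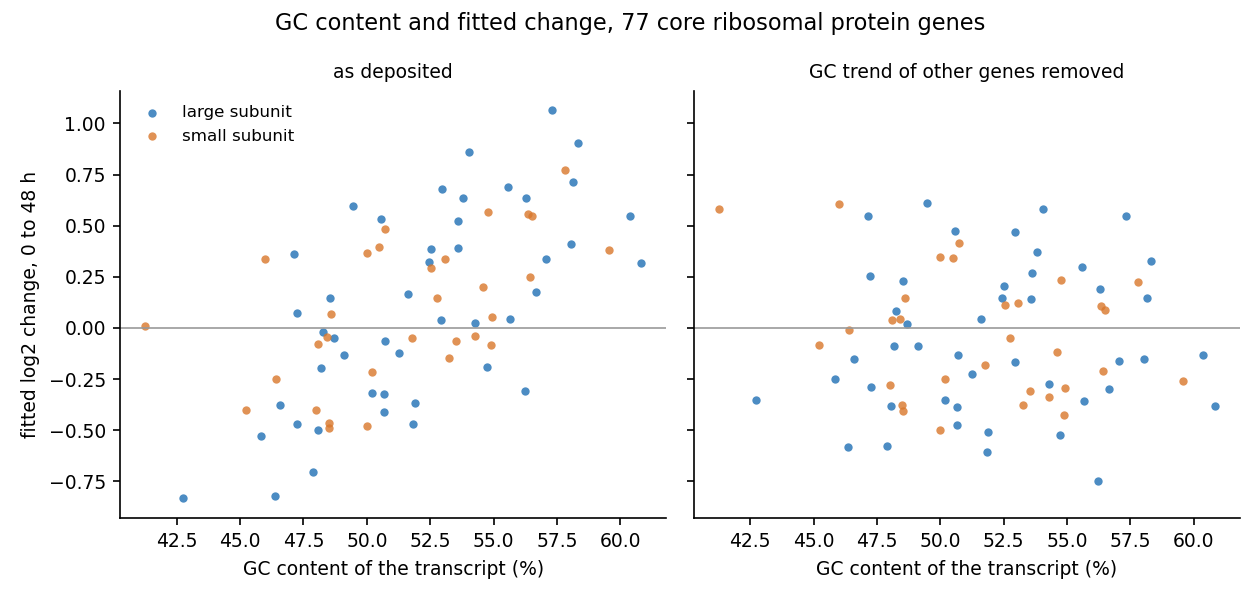
Fitted log2 change from 0 to 48 h against transcript GC content for 77 core genes, from the deposited values (left) and with each library's GC trend in other genes removed (right). Points slope upward in the first panel and show no such slope in the second; the medians of the 15 lowest and 15 highest GC genes are -0.40 and 0.55 on the left and -0.15 and -0.13 on the right.

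Levels between genes were compared per kilobase of transcript instead of genomic span. Over the 77 core genes the mean level on that scale had a median of 1587, with quartiles of 1038 and 2306, although the proteins are used in about equal number. The highest were Rps28 (10596), Rpl41 (5805), which encodes the smallest protein of the ribosome, and Rplp1 (5063). At the other end stood Rpl35a (262), Rpl34 (306) and Rps3 (411). The transcript model used for Rps3 has 1908 bases, against a core median of 681, and a longer model gives a lower level. Rps3 also carries 2 small nucleolar RNAs in its span. The median level was 1502 in the large and 1826 in the small subunit. Transcript models, overlaps and unplaced reads limit such levels: 13 members overlap another protein-coding gene, and 30 hold small nucleolar RNAs, 59 in all.

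Copies of ribosomal protein genes differ in how far reads can separate them. Rps27rt is an intronless copy of Rps27 that lies inside Osbpl10, and Rps27l is a paralog with introns that is known as a p53 target. The first 60 coding bases from GENCODE transcripts (GRCm38) are given for the 3 genes, with capitals where a base differs from Rps27.

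Rps27: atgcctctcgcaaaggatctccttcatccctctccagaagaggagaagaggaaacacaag
Rps27rt: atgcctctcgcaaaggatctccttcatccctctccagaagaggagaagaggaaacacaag
Rps27l: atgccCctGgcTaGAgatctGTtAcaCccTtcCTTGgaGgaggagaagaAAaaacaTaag

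Rps27rt has 0 differences from Rps27 over all 255 coding bases, and the transcripts share an unbroken run of 341 bases. Rps27l differs at 18 of these 60 bases and is 76.1% identical over the coding sequence, with no shared run above 11 bases. The deposited values kept a nearly constant ratio, with Rps27rt at 172, 264, 268, 314, 271, 287 and 251. This was between 96.3% and 103% of Rps27 per kilobase of genomic span in every library. Per kilobase of transcript it was 33.9% to 36.2%. Reads of Rps27 and Rps27rt cannot be told apart by sequence, so neither value belongs to 1 gene. Rps27l ran separately at 54.6, 65.3, 74.0, 59.9, 35.9, 81.8 and 38.2.

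Rpl22l1 is the paralog of Rpl22. Rpl22, an RNA-binding protein of the large subunit, stood at 50.5, 59.5, 65.6, 47.4, 44.3, 56.7 and 34.9. Its paralog Rpl22l1, which can take its place in the ribosome, stood at 31.2, 35.5, 56.7, 12.4, 29.0, 57.1 and 8.33. The paralog thus matched Rpl22 at 24 h (101% of its value) and stood at 26.1% at 6 h and 23.8% at 48 h, per kilobase of span; per kilobase of transcript the range was 4.94% to 20.8%. The 2 coding sequences are 70.2% identical with no shared run above 26 bases. The ratio had no trend that passed the test: Pearson's r of the log2 ratio with log2 hours was -0.25 (exact permutation p = 0.574, adjusted p = 0.648, two-sided over 5040 library orders), Spearman's rho was -0.07 (exact permutation p = 0.906), and r was 0.33 without the 0 and 48 h libraries.

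Rpl22l1 has the lower GC content of the pair (40.6% against 47.3%), and its lows fell in the libraries where the decile of other genes poorest in GC was low, by 0.25 at 6 h and 0.56 at 48 h on the log2 scale. After removal of that trend its log2 ratio to Rpl22 was still lowest at 6 h (-1.72) and 48 h (-1.57) and highest at 24 h (-0.11). Its fitted change from 0 to 48 h was -1.02 ± 0.90 (adjusted p = 0.516 by limma), and over the 20 alternative settings it ran from -1.80 to 0.56.

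None of the 6 pairs tested passed. Percentages of a parent gene are given per kilobase of genomic span here and in the next paragraph. Rps27l against Rps27 had the largest coefficient (r = -0.63, exact permutation p = 0.133, adjusted p = 0.648 over 6 pairs). Its rho was -0.54, and r was -0.19 without the 0 and 48 h libraries. Rps27l has the lower GC content (44.9% against 50.7%), and r was -0.50 with the GC trend removed. The Rps27 value used here cannot be separated from that of Rps27rt. Rpl10l, an intronless copy known for testis expression, was at 36.0% of Rpl10 at 0 h and 16.9% to 25.9% later (r = -0.44, exact permutation p = 0.322, adjusted p = 0.648); the coding sequences are 84.8% identical with no shared run above 23 bases. Rpl39l, also known from testis, was at 12.9% of Rpl39 at 0 h and 3.96% to 7.66% later (r = -0.22, exact permutation p = 0.640). Both stood highest, relative to the parent gene, in the 0 h library.

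The remaining copies stayed below their parent genes. Rpl36al lay between 43.0% of Rpl36a at 14 h and 81.5% at 24 h (r = 0.23, exact permutation p = 0.636). Rpl7l1, a nucleolar assembly factor related to Rpl7, lay between 4.94% at 4 h and 12.4% at 14 h (r = 0.22, exact permutation p = 0.648). Rpl3l, known from heart and skeletal muscle, was at or below 0.213 in every library beside 303 to 511 for Rpl3. Rps4l was not analysed here.

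**Figure D5:**
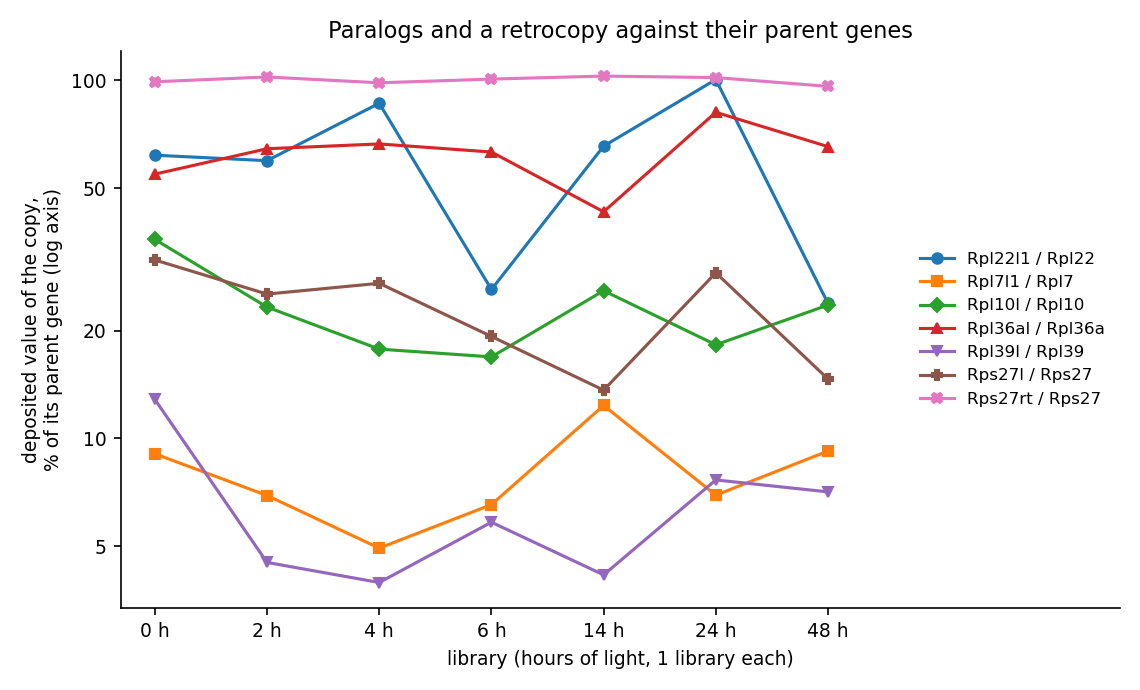
Deposited value (per kilobase of genomic span) of 6 paralogs and the retrocopy Rps27rt as a percent of the parent gene in each of the 7 single libraries, on a log axis; lines join the libraries of 1 pair. Rps27rt stays between 96.3% and 103%, while Rpl22l1 stands at 26.1% at 6 h and 23.8% at 48 h.

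Rps23rg1, a retrogene of Rps23, had the most positive fitted change of all members at a low level. Its span overlaps the pseudogene Rps23-ps2, and its sequence was not compared with that of Rps23, so how many of its reads are its own was not tested. It stood at 2.98, 4.01, 4.52, 7.10, 6.18, 5.70 and 8.24 (1.10 ± 0.27, adjusted p = 0.085 by limma). Its parent Rps23 lay between 298 and 448, so the copy amounted to 0.977% to 1.84% of it per kilobase of genomic span. Per kilobase of transcript the range was 6.94% to 13.1%. Rpl32l, whose span overlaps Map7, varied most between libraries, from 15.8 at 14 h to 126 at 6 h.

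Ribosomal proteins that the symbol rule misses, Fau and Rack1, were low at 0 h as well. Fau, which encodes a small subunit protein fused to a ubiquitin-like domain, stood at 112, 142, 136, 189, 173, 142 and 208 (0.69, adjusted p = 0.207). Rack1, a scaffold on the small subunit, lay between 508 at 0 h and 779 at 6 h (0.23, adjusted p = 0.638). Both were lowest at 0 h, and the highest library was 48 h for Fau and 6 h for Rack1.

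Other genes of ribosome production had medians near 0 in the 4 h library. Of 66 tested ribosome biogenesis genes, 0 rose and 0 fell; the median log2 ratio of 4 h to 0 h was 0.05 and the median fitted change -0.15, with Ncl, nucleolin, between 34.4 in the 48 h library and 122 in that of 2 h (-1.23, adjusted p = 0.211) and Nop10, a box H/ACA protein, between 29.1 (0 h) and 119 (48 h; 1.71, adjusted p = 0.069). Among 27 tested subunits and factors of RNA polymerases I and III, 0 rose and 0 fell (median 4 h ratio -0.09). For 72 mitochondrial ribosomal proteins the counts were again 0 and 0, with a median 4 h ratio of 0.04 and 49 positive fitted changes (median 0.13). Their difference from the ribosomal protein genes was not tested.

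Translation factors and other mRNAs with a TOP tract came nearer to the members at 4 h. The 20 tested had a median log2 ratio of 0.28 at 4 h and 0.13 at 48 h, and 0 passed the trend test in either direction. Tpt1, whose mRNA is a standard TOP mRNA, stood at 250, 300, 323, 429, 326, 383 and 557 (0.94, adjusted p = 0.122). Of 16 tested regulators of ribosome synthesis 0 passed; Mycn, a Myc family factor that drives ribosome production, stood at 9.85, 11.5, 11.7, 11.4, 12.9, 23.8 and 50.3 (1.99, adjusted p = 0.079). It was highest at 24 and 48 h. Of the 77 core ribosomal protein genes, 30 were highest at 4 h, 22 at 6 h and 15 at 48 h. A link between Mycn and these genes was not tested.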

How the data were processed

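Messenger RNA libraries from 7 time points were aligned by the authors with Bowtie2 to mm9, per the submitters' processing notes (without a version); per the labels' protocols RNA came from an RNeasy kit and libraries from a Lexogen SENSE kit. Counting, strand use and the treatment of reads matching several places are not given in the sources used. No unit is named for the deposited signal: multiplied by the genomic span and a library factor, 93.6% to 95.0% of values between 2 and 20 reads came within 0.1 of a whole number of reads (20% would by chance). Recovered reads are approximate, since spans are from GRCm38; that reference served for symbols, GC content, lengths (87 of 89 members) and sequences.

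Of 30673 rows, 3320 start-site rows were 0 in every library; 10 members had several rows, and the row of highest mean was used. Trends were tested with limma 3.58.1 (R 4.3.3; lmFit, eBayes with a mean trend) on log2 of value plus 1 against log2 of hours plus 1, mean at least 1, 5 residual degrees of freedom, Benjamini-Hochberg adjusted over all genes. A fitted change spans 0 to 48 h on the log2 scale. Ratios to 0 h were taken where 1 of the 2 libraries reached a value of 10, with no test. GC and length trends were natural splines (5 degrees of freedom) fitted on other genes of mean at least 5. Pairs were tested by exact permutation (scipy 1.17.1). The trend fit was checked on simulated data. Alternatives were other normalizations, filters, pseudocounts, time scale, transcript rows, trend removal, recovered reads (limma-voom) and each library left out.

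Named genes were the stalk proteins and Rpsa, paralog pairs, the 6 largest and 6 lowest changes with a mean of at least 10, the 3 highest and 3 lowest levels, members of known roles, and up to 4 genes of each other list. Of the genes this rule names, 2 are not reported here. Others named, such as Rps23rg1, Rps27rt, Rpl32l, Rpl37a, Rps15a and Rps21, were chosen after their values were seen. The members and lists were chosen with earlier results of these data known.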

Additional observations from a re-analysis of the deposited data

How the results depend on the processing

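The members called were 0 in each direction in all 20 alternative trend settings, and pairs called were 0 in all 16. The median change of the large subunit was 0.06, and between -0.21 and 0.26 with 1 library left out. For the small subunit these were 0.05 and -0.27 to 0.23. With quantile normalization the medians were -0.15 (large) and -0.23 (small), and with the GC trend removed -0.13 and -0.05. They were -0.28 and -0.17 with the length trend removed, and -0.20 and -0.11 with both trends removed. Core genes with a positive change went from 43 of 77 to 31, 34, 27 and 31 in that order of settings. The medians of all tested genes were then -0.03, -0.05, -0.06 and -0.04. The core ratio of 48 h to 0 h was 0.16, and -0.17 with quantile normalization, -0.23 with the length trend removed and -0.10 with GC and length trends removed. The ratio of 4 h to 0 h stayed positive in all 8 alternatives (0.14 with quantile normalization, 0.17 with the length trend removed and 0.17 with both trends removed, from 0.46). Genes lowest at 0 h went from 43 to 21, 27, 15 and 17 of 77 with quantile normalization, the GC trend, the length trend and both trends removed; these last 2 results were added after seeing the data. Over all genes, 19 rising and 4 falling became 0 and 0 with no filter, with pseudocount 5, with the GC trend removed or without the 6 and 48 h libraries, 36 and 7 with pseudocount 0.1, 162 and 28 in linear hours, 1 and 1 with both trends removed, and 305 and 108 on recovered reads; falling genes were 1 at a mean of at least 5 and 9 with the length trend removed. With 1 library left out they ranged from 1 to 54 rising and 0 to 25 falling. The causes were not tested. No paired analysis was possible because each time point has 1 library and the labels give no replicate numbers. Depth did not limit the core genes, but Rpl3l had as few as 2 reads in a library and Rpl39l 172.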
